A study of Mus musculus with 18 samples.

Results

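The 10 genes described here take part in moving salt, water and acid-base equivalents across the colon epithelium, whose absorptive cell is the colonocyte. They were taken by name from the 52636 genes listed in both tables of the series, namely the apical exchangers Slc9a3 and Slc26a3, the carbonic anhydrases Car1, Car2 and Car4, the sodium channel subunits Scnn1a, Scnn1b and Scnn1g, the water channel Aqp8 and the anion channel Cftr. The study asked what the olfactory receptor Olfr78 does in colon enteroendocrine cells, the hormone-secreting cells of the epithelium, and in the epithelium at large. RNA-seq was made from 6 libraries of sorted cells and from 12 libraries of whole colon crypts, each of the latter from 1 mouse. The sorted cells came from crypts of mice 4 to 7 months old and comprised 2 samples of Epcam+ve/GFP-ve cells from 1 WT mouse, 2 pools of Epcam+ve/GFP+ve cells from heterozygous (HE) mice and 2 such pools from homozygous (KO) mice, 2 mice to a pool. In this line, Olfr78-GFP, GFP replaces the receptor's coding exon, so that HE mice carry 1 GFP allele and KO mice carry 2. Crypts came from 2 WT and 5 KO mice of the same line on a mixed B6;129P2 background. Crypts of a second line came from 3 control (eCtrl) and 2 knockout (eKO) mice, in which exon 3 of Olfr78 is floxed and Cre is driven by the Villin promoter, thus in the epithelium. By the sample tags the eCtrl mice carried either Cre without the floxed allele or the floxed allele without Cre. The floxed and the Cre strain carry B6 in their names, and the study calls the genetic backgrounds of the 2 lines distinct.

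The colon absorbs sodium chloride by pairing 2 apical exchangers, a sodium/proton exchanger and a chloride/bicarbonate exchanger. Carbonic anhydrases in the cytosol and on the brush border supply the protons and bicarbonate for this exchange. The distal colon adds the epithelial sodium channel ENaC, built from an alpha, a beta and a gamma subunit and raised by aldosterone, and the crypts secrete chloride and bicarbonate through CFTR. In mouse colon the surface cells carry most of the exchangers, and Cftr is strongest in the crypt.

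Values are reads per gene scaled to 20000000 per library, called CP20M. The recovered reads on genes numbered 532702 to 2237474 in the sorted libraries and 6175301 to 10995300 in the crypts, so that 1 read was worth 8.94 to 37.5 CP20M in the former and 1.82 to 3.24 in the latter. The shallowest library was KO pool 1. Olfr78 stood at 88 and 111 in WT crypts and at 7 to 42 in the 5 KO crypts, and it fell in KO crypts (log2 fold change -1.71, SE 0.38, limma adjusted p = 0.0199). In the second line it stood at 105, 61 and 124 in the eCtrl crypts, 21 in eKO replicate 1 and 73 in eKO replicate 2. The difference between eKO and eCtrl crypts did not pass (-1.02, SE 0.49, adjusted p = 1.0). In the sorted pools, Olfr78 reads were 4822 and 4401 CP20M in HE and 977 and 837 in KO pools (-2.34, SE 0.29, adjusted p = 0.401), where exons left by the GFP allele can still give reads. The library labelled eKO replicate 2 lay inside the control range, and its genotype tag, WT/HO, is the one given to eCtrl replicate 2, so results of the second line are given with and without it. The Epcam+ve/GFP-ve samples are tagged enteroendocrine, yet the 8 summed enteroendocrine markers reached 12834 to 13105 CP20M there, within the 6252 to 15060 of the crypts that were tagged as all epithelium, against 861673 to 1117713 in HE pools. The 2 lines differ in genetic background, and no level was tested across them. The 2 Epcam+ve/GFP-ve samples came from the same mouse, so p-values that use them rest in part on technical spread.

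**Figure D1:**
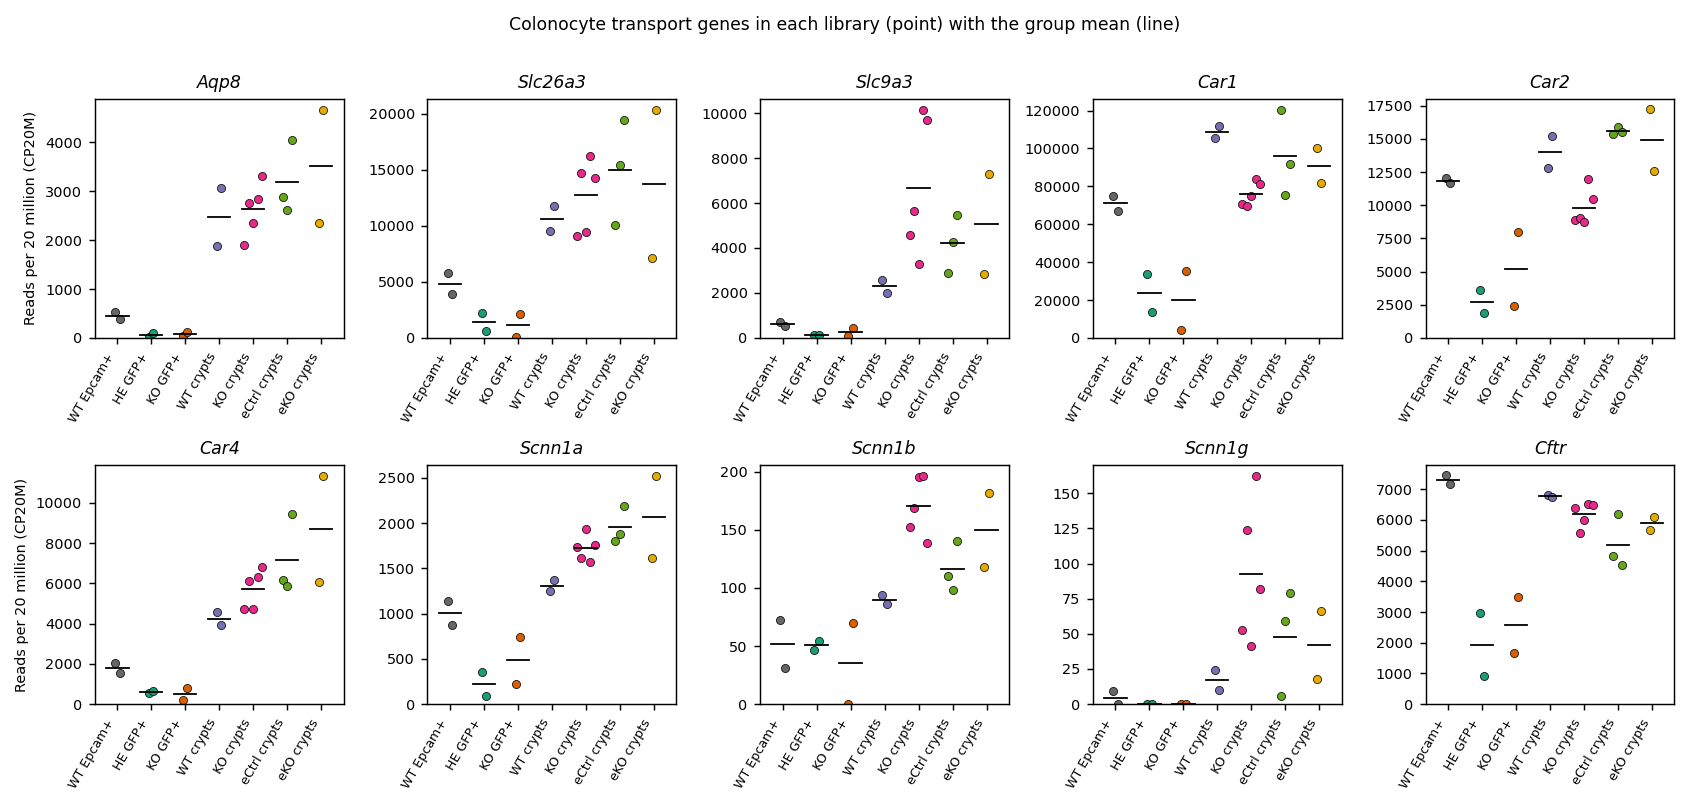
Each panel plots 1 gene with CP20M on a linear axis from 0, 1 point per library and a line at the group mean for the 7 groups. The 6 sorted libraries lie below the crypts for Aqp8 and Slc9a3, and the 5 KO crypts lie above both WT crypts for Slc9a3, Scnn1b and Scnn1g and below them for Car1 and Car2.

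Per kilobase of exon, Car1, a cytosolic carbonic anhydrase, was the most abundant of the 10 genes in each of the 12 crypt libraries, at 55670 to 96330 CP20M per kb. Car2, its cytosolic relative, followed at 3601 to 7131, and Car4, the carbonic anhydrase anchored to the brush border, at 1984 to 5748. Car1 exceeded Car2 in 12 of 12 crypt libraries and Car2 exceeded Car4 in 11 of 12. Below them, Slc26a3 (1120 to 3193 per kb), the chloride/bicarbonate exchanger DRA, and Aqp8 (1194 to 2951 per kb) could not be ordered, since Slc26a3 was the higher in 8 of 12 libraries. Slc9a3, the sodium/proton exchanger NHE3 (363.5 to 1843 per kb), and Cftr (583.0 to 876.8 per kb) traded places as well, with Slc9a3 higher in 6 of 12. The ENaC subunits came last and in the same order in all 12 crypt libraries, with Scnn1a (alpha) at 303.1 to 610.9 per kb, Scnn1b (beta) at 32.7 to 74.5 and Scnn1g (gamma) at 2.01 to 54.2. All 3 subunits are needed for a full channel, and their levels per kb differed widely. In the sorted libraries Cftr lay above Slc9a3 in 6 of 6. Together the 10 genes took 0.541% to 0.822% of a crypt library and 0.0452% to 0.524% of a sorted library. Car1 alone made up 55.7% to 73.2% of that sum in crypts.

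The first comparison asked how GFP+ve cells of HE mice differ from the general epithelium. In the HE pools, 8 of the 9 genes tested lay below both Epcam+ve/GFP-ve samples without overlap, as did 33.1% of all 16355 genes tested (30.4% lay above without overlap). Scnn1b was the exception, and Scnn1g was not tested. The HE pools held 3579 and 1907 CP20M of Car2, and the Epcam+ve/GFP-ve samples 12041 and 11681 (log2 fold change -2.18, SE 0.27, limma adjusted p = 0.00143). Slc9a3 was at 127 and 121 against 698 and 545 (-2.23, SE 0.37, adjusted p = 0.00443), and Slc26a3 at 2233 and 574 against 5775 and 3904 (-2.06, SE 0.53, adjusted p = 0.0244). For both exchangers the lowest Epcam+ve/GFP-ve sample stayed above the highest HE pool. Aqp8 had the lowest fitted change, -2.86 (SE 0.64, adjusted p = 0.0143), from 24 and 107 against 528 and 381, where 24 CP20M is 2 reads. Car1 was at 33657 and 13482 against 75147 and 66795 (-1.73, SE 0.37, adjusted p = 0.0129), and Car4 at 553 and 654 against 2047 and 1562 (-1.56, SE 0.24, adjusted p = 0.00338). All 3 carbonic anhydrases among the 10 genes lay lower in the HE pools, though Car1 remained the most abundant of the 10 there per kb. Scnn1a was at 357 and 94 against 1145 and 874 (-2.37, SE 0.54, adjusted p = 0.0159), and Cftr at 2969 and 907 against 7464 and 7161 (-2.15, SE 0.45, adjusted p = 0.0114). Scnn1b was at 47 and 54 against 72 and 31 (0.06, SE 0.65, adjusted p = 0.961), values of 3 to 8 reads. Scnn1g had no read in either HE pool, which allows up to 34.5 and 40 CP20M, and 9 and 0 in the Epcam+ve/GFP-ve samples, so no difference was detectable at this depth.

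None of the 9 genes passed the thresholds of this comparison, an adjusted p under 0.001 and a log2 fold change beyond 2, which 1.75% of all genes passed (1.58% higher and 0.171% lower). At an adjusted p under 0.05, a looser level chosen after the values were seen, 8 of the 9 genes were lower, against 11.3% of all genes lower at that level. The median log2 fold change over the 9 genes was -2.15, and over all genes tested -0.05. On recovered reads, edgeR's quasi-likelihood test called 2 of them, Car2 and Slc9a3, and 4.64% of all genes, while DESeq2 called Car2 and 4.23% of all genes. With the replicate number as a block, Slc26a3, Car2 and Cftr were called, along with 3.20% of all genes. The 4 libraries differ in cell type markers. The 6 goblet cell markers summed to 143788 and 67822 CP20M in HE pools 1 and 2 against 343290 and 298329 in Epcam+ve/GFP-ve samples. Of the 11 other colonocyte markers, 4 lay above 0 and 7 below, with a median log2 fold change of -0.48. Only Krt20 among them was called, higher in HE pools (2.76, SE 0.19, adjusted p = 6.2e-05), at 24878 and 31364 CP20M against 4434 and 3822. HE pool 1 had a higher goblet marker sum than HE pool 2, though less of the goblet marker Spink4 (1186 against 1627). It also had more Slc26a3, Car1, Car2, Scnn1a and Cftr, but less Aqp8, Car4 and Scnn1b, and about as much Slc9a3. Whether other cells in the sorted pools contributed to these levels was not tested. In bulk RNA, fewer cells of a type and less RNA per cell cannot be told apart.

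Among 65 further genes of colonic transport, 55 were tested here and none passed the thresholds (0 higher, 0 lower), with a median log2 fold change of -1.26. By limma, 34 of the 55 had an unadjusted p under 0.05, as did 6086 of all 16355 genes tested. The 8 anion secretion genes had the lowest group median, -2.20. They include Slc12a2, the basolateral cotransporter NKCC1 that loads chloride (-2.06, SE 0.36, adjusted p = 0.00579), and Ano1, a calcium-activated chloride channel (-2.29, SE 0.41, adjusted p = 0.0061). Among the aquaporins, Aqp4, a basolateral water channel, gave -4.34 (SE 0.64, adjusted p = 0.00276) from 323 and 54 CP20M in the HE pools against 3201 and 2692, and Aqp1 gave -1.96 (adjusted p = 0.0157). Hsd11b2, which shields the aldosterone receptor from glucocorticoids, gave -2.42 (SE 0.33, adjusted p = 0.00222), and Nr3c2, that receptor, -1.32 (adjusted p = 0.0155). Slc16a1, the monocarboxylate carrier MCT1 for short-chain fatty acids, gave -2.17 (adjusted p = 0.00807), and Slc5a8, the sodium-coupled carrier of the same substrates, -1.56 (adjusted p = 0.0542). Slc26a2, a sulfate/anion exchanger, gave -1.35 (adjusted p = 0.00795). Slc4a4, the basolateral sodium bicarbonate cotransporter, gave -1.93 (adjusted p = 0.0226), and Slc4a7, a related cotransporter, -0.48 (adjusted p = 0.145). Ptger4, a prostaglandin receptor, gave -1.70 (adjusted p = 0.00393), and Guca2a, the gene of guanylin, which drives fluid secretion, -1.35 (adjusted p = 0.00506). The pump-associated genes differed among themselves. Atp1b1, a sodium pump beta subunit, gave -1.06 (adjusted p = 0.0173), while Fxyd3, a pump modulator, gave 1.83 (SE 0.21, adjusted p = 0.000868), from 3683 and 4814 CP20M in the HE pools against 1091 and 1264, just under the fold threshold. Of the other carbonic anhydrases, Car11 is a relative without catalytic activity. Car11 was at 277 and 281 in the HE pools against 18 and 31 (3.09, SE 0.56, adjusted p = 0.00617). It reached the filter through the HE pools only and so had to differ, and its test is no support for a rise. Car8, another such relative, gave -1.27 (adjusted p = 0.00441).

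Loss of the receptor in the GFP+ve cells was examined next, KO against HE pools. Of the 10 genes, 7 exceeded 40 CP20M in all 4 pools and were tested, and none passed at an adjusted p under 0.05. The same held for all 11892 genes tested (0.00%), of which 503 had an unadjusted p under 0.05, and edgeR called 0 and DESeq2 8. The criterion of the study's methods, means that lie apart by over 2 times their averaged SD and differ beyond 1.5-fold, was met by 13.2% of all genes and by 0 of the 7. The KO pools differed widely between themselves. Over all genes tested the median log2 fold change was -0.18, and median-of-ratios rescaling moved it by 0.15 to -0.03. Car1 was at 4318 in KO pool 1 and 35383 in KO pool 2, on either side of the 33657 and 13482 of the HE pools (log2 fold change -0.78, SE 0.86, adjusted p = 0.933). Slc26a3 was at 113, which is 3 reads, and 2173 against 2233 and 574 (-1.14, SE 1.18, adjusted p = 0.932). Scnn1a was at 226 and 744 against 357 and 94 (1.11, SE 0.78, adjusted p = 0.931), and Car2 at 2403 and 8018 against 3579 and 1907 (0.75, SE 0.55, adjusted p = 0.931). In each of the 7 tested genes, and in Aqp8 (38 and 117), KO pool 2 was the higher KO pool. The goblet cell markers moved the same way, summing to 63227 in the first KO pool and to 320468 in the second. The 8 enteroendocrine markers went the other way, 608372 and 360592. Whether cell makeup of the pools had a part in these values was not tested. With 1 KO pool left out, the KO group was a single library, assumed to vary like the HE pools, and the calls depended on which pool was kept. Without KO pool 1, Car2 passed (log2 fold change 1.61, adjusted p = 0.0156), and without KO pool 2, Slc26a3 (-3.22, adjusted p = 0.00882) and Car1 (-2.30, adjusted p = 0.00339) did. At those settings 2.55% and 1.21% of all genes were called. None of the 7 tested genes was free of overlap between the KO and HE pools, where 8.91% of all genes lay higher and 26.1% lower without overlap. Scnn1b had no read in KO pool 1, which allows up to 113 CP20M, and Scnn1g had none in either KO pool. Of 43 further transport genes tested none was called, and those with the smallest p-values were Aqp4 (3.91, SE 0.90, unadjusted p = 0.00231, adjusted p = 0.931) and Ano1 (2.12, SE 0.78, unadjusted p = 0.0261, adjusted p = 0.931).

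**Figure D2:**
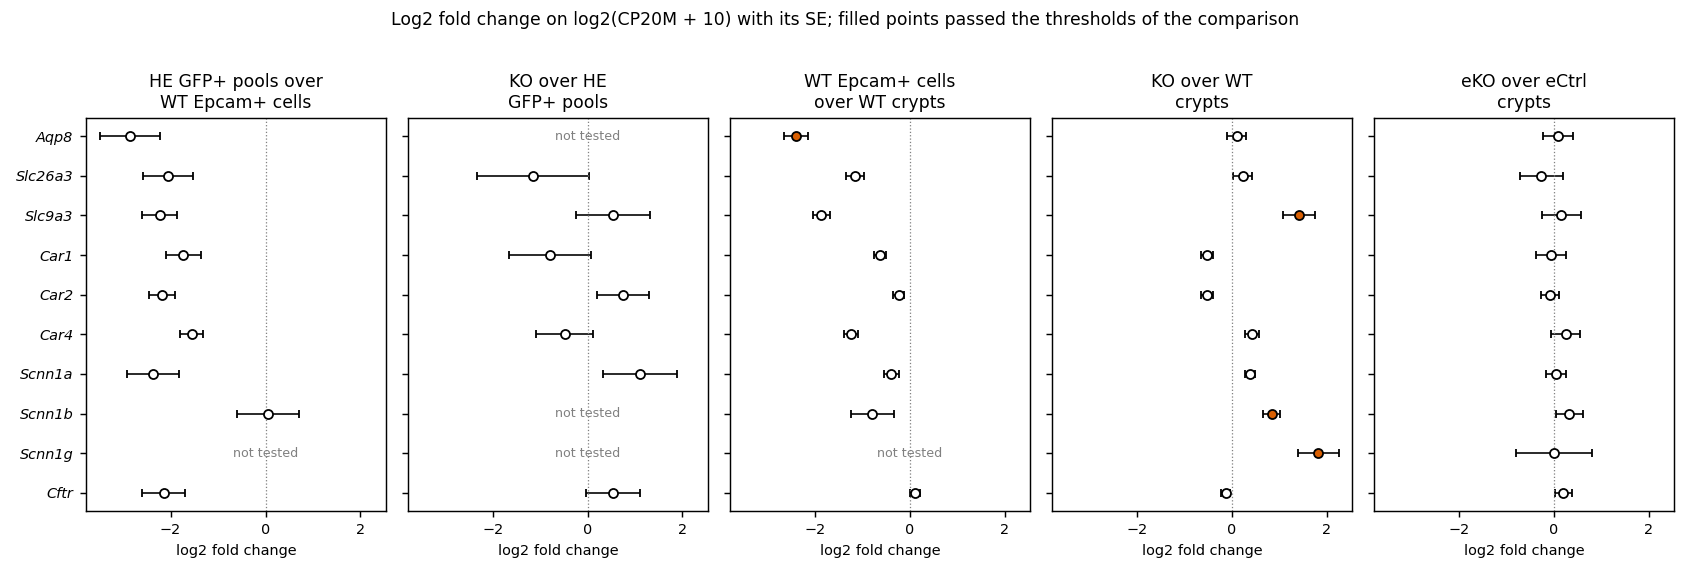
Each panel shows 1 comparison, with the log2 fold change of each gene on log2(CP20M + 10) on the x axis and its SE as a bar. Filled points passed the thresholds, which was so for Aqp8 in Epcam+ve cells over WT crypts and for Slc9a3, Scnn1b and Scnn1g in KO over WT crypts. Scnn1g reached the filter through the KO crypts only.

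The sorted epithelium and the crypts of WT mice share 1 table and differ in preparation, since the former were dissociated, stained for Epcam and sorted. Aqp8 was at 528 and 381 CP20M in the Epcam+ve/GFP-ve samples and at 1886 and 3058 in WT crypts, and it was lower in the sorted cells (log2 fold change -2.39, SE 0.25, adjusted p = 0.000805). It was the only one of the 9 genes tested to pass the adjusted p under 0.001 and a log2 fold change beyond 2, where 0.194% of all genes were called lower, and it was not called in 8 of 12 other settings. Slc9a3 was at 698 and 545 against 2589 and 1999 (-1.87, SE 0.18, adjusted p = 0.000645), Car4 at 2047 and 1562 against 4586 and 3909 (-1.24, SE 0.16, adjusted p = 0.00184) and Slc26a3 at 5775 and 3904 against 9534 and 11750 (-1.16, SE 0.19, adjusted p = 0.00459). Car1 gave -0.62 (SE 0.12, adjusted p = 0.0106). These 5 genes were lower at an adjusted p under 0.05, as were 18.5% of all genes (6.07% were higher). Car2 gave -0.23 (SE 0.12, adjusted p = 0.178), Scnn1a -0.39 (SE 0.17, adjusted p = 0.126) and Scnn1b -0.79 (SE 0.45, adjusted p = 0.233). Cftr, the crypt channel, stood at 7464 and 7161 against 6804 and 6733 (0.11, SE 0.10, adjusted p = 0.456). Over all genes tested the median was -0.26, and median-of-ratios rescaling moved it by 0.20 to -0.06. Relative to that median, Aqp8 was at -2.13, Slc9a3 at -1.60, Car4 at -0.98, Slc26a3 at -0.89, Car2 at 0.03 and Cftr at 0.37. Without overlap, 8 of the 9 genes lay lower and Cftr lay higher, against 48.0% and 17.2% of all genes. The 6 cell division markers summed to 22613 to 24210 CP20M in the sorted cells and 14975 to 15125 in WT crypts, and the 11 other colonocyte markers to 139882 to 159121 and 220491 to 228429. The posterior Hox genes summed to 588 to 646 and 1209 to 1509, and the leukocyte markers to 125 to 144 and 733 to 900. Their part in the difference was not tested, and sorting cannot be told apart from the mouse. Among the 52 further transport genes tested, 1 was called lower, Sgk1, the aldosterone-induced kinase that raises ENaC (-2.02, SE 0.11, adjusted p = 4.27e-05), and 0 higher.

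In whole crypts, KO mice of the Olfr78-GFP line were set against WT mice. Slc9a3 and Scnn1b rose in KO crypts, where 7.95% of all 15975 genes tested rose, at an adjusted p of at most 0.2 and beyond 1.5-fold (9.48% in either direction). Scnn1g passed as well, but it reached the filter on low values through the KO crypts only and so had to differ, and it is given as values. None of the 10 fell past both thresholds (1.53% of all genes did). Slc9a3 was at 4590, 5659, 3301, 10136 and 9688 CP20M in the 5 KO crypts and at 2589 and 1999 in the WT crypts (log2 fold change 1.42, SE 0.35, adjusted p = 0.031). The lowest KO crypt exceeded the highest WT crypt, and KO replicates 4 and 5 stood well above the rest. The mean was 6675 ± 3075 (SD, n = 5) in KO and 2294 ± 417 (SD, n = 2) in WT crypts. Slc9a2, the second apical sodium/proton exchanger, was at 4560 to 7752 in KO and 6285 and 6201 in WT crypts, overlapping, and the ratio of Slc9a3 to Slc9a2 went from 0.412 and 0.322 in WT crypts to 0.712 to 1.59 in KO crypts.

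Of the ENaC subunits, Scnn1b was at 152, 169, 195, 196 and 139 CP20M in KO crypts against 94 and 86 (0.84, SE 0.18, adjusted p = 0.0197), which is 52 to 85 reads against 35 and 38. Scnn1g was at 53, 124, 41, 162 and 82 against 24 and 10 (1.83, SE 0.43), which is 17 to 70 reads against 9 and 4. The groups did not overlap for either. The pseudocount of 10 understates the fold of Scnn1g, which was 5.44 as a ratio of the plain means. Scnn1a, the alpha subunit, was at 1572 to 1932, with a median of 1740, against 1252 and 1370 (0.39, SE 0.10, adjusted p = 0.0385), past the adjusted p but under 1.5-fold.

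The cytosolic carbonic anhydrases lay lower in KO crypts. Car1 was at 70806, 69591, 74917, 83771 and 81094 CP20M against 105749 and 111936 (-0.52, SE 0.13, adjusted p = 0.0314), and Car2 at 8881, 9004, 8715, 11958 and 10453 against 12796 and 15219 (-0.52, SE 0.13, adjusted p = 0.0337). Both changed by 1.43-fold, under the 1.5-fold threshold, with no overlap of the groups. They were called lower under median-of-ratios rescaling, with log2 fold changes of -0.59 for each, where 1432 of 15975 genes were called (1069 higher and 363 lower). With the replicate number as a block they were called lower too (-0.63 and -0.64), where 9.73% of all genes were called. Car2 was also called without WT replicate 1 (-0.65, with 6.05% of all genes called), where the WT group is a single library and the KO crypts alone give the spread. The ratio of Car1 to Car2 was 7.01 to 8.6 in KO and 8.26 and 7.36 in WT crypts. Car4 went the other way, 4709 to 6786 with a median of 6109 against 4586 and 3909 (0.42, SE 0.15, adjusted p = 0.0963). Aqp8 (0.11, SE 0.20, adjusted p = 0.773), Slc26a3 (0.23, SE 0.21, adjusted p = 0.518) and Cftr (-0.13, SE 0.09, adjusted p = 0.384) did not pass. Aqp8 spanned 1909 to 3310 in KO and 1886 to 3058 in WT crypts, and the groups overlapped.

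In KO crypts, Slc9a3, Car4, Scnn1a and Scnn1b, beside Scnn1g, lay higher without overlap and Car1, Car2 and Cftr lower, where 18.2% and 13.1% of all genes did. The median log2 fold change over all genes was 0.03. The 3 calls rested on WT replicate 2. Without it none of them held (adjusted p = 0.273 for Slc9a3, 0.2002 for Scnn1b and 0.273 for Scnn1g), with log2 fold changes of 1.23, 0.78 and 1.45, while the genes called fell in number from 1514 (9.48%) to 553 (3.46%). In each of the other 15 settings Slc9a3 and Scnn1b stayed past the thresholds. Scnn1g did too, but it reached the main filter through the KO crypts only, so its calls are no support for a rise. Some markers of other cells and of position along the colon passed as well. None of the goblet (6 tested), cell division (6), tuft (4) or stroma (5) markers did. Of 7 enteroendocrine markers tested 1 fell, Chgb (-0.61, adjusted p = 0.124). Of the 11 other colonocyte markers 8 lay below 0 and 1 fell, Fabp2, a fatty acid binding protein of enterocytes (-0.83, adjusted p = 0.00822), with sums of 220491 to 228429 in WT and 179611 to 229679 in KO crypts. The stem cell marker Lgr5 fell (-0.76, adjusted p = 0.0195), and the 4 stem cell markers summed to 1976 to 2128 and 1397 to 1749. The 6 leukocyte markers summed to 733 to 900 CP20M in WT and 307 to 587 in KO crypts, without overlap, and 3 of the 5 tested fell (Cd74, Lyz2 and Ptprc), with 0 to 1 of the 6 at 0 in a library. The 6 posterior Hox genes, which mark the distal colon, summed to 1209 to 1509 in WT and 1261 to 2158 in KO crypts, and of 5 tested Hoxd11 rose (1.06, adjusted p = 0.114). Hoxd10 also passed (1.16, adjusted p = 0.0823), but reached the filter through the KO crypts only. The sums overlapped, and Hoxa13, Hoxb13 and Hoxd13 did not pass. KO replicate 4, with the highest summed Hox level of the KO crypts, had the highest Slc9a3 and Scnn1g, and KO replicate 3, with the lowest, had the lowest of both. Scnn1b did not follow, at 195 in KO replicate 3 and 196 in KO replicate 4. WT replicate 2 had a Hox sum of 1509, above the 1362 and 1261 of KO replicates 1 and 3. It had less Slc9a3 (1999 against 4590 and 3301) and less Scnn1g (10 against 53 and 41) than both. WT replicate 1, with a Hox sum of 1209, lay below all KO crypts in that sum, in Slc9a3 and in Scnn1g. The part of the position sampled or of other cells in these results was not tested.

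The promoter sequences of Slc9a3 and Scnn1b, called higher in KO crypts, and of Scnn1g are shown so that their letters can be compared. RefSeq promoters (GRCm38.p6, 250 bases before to 50 after the start site) were held for 7 of the 10 genes and not for Car1, Car2 and Scnn1a. They lie on the plus strand at chr13:74121163-74121462 for Slc9a3, chr7:121864788-121865087 for Scnn1b and chr7:121734229-121734528 for Scnn1g, and capitals mark matches to 4 motifs on either strand, of which the GC box GGGCGG (on the other strand CCGCCC) and the CDX site TTTATG were found here.
Slc9a3: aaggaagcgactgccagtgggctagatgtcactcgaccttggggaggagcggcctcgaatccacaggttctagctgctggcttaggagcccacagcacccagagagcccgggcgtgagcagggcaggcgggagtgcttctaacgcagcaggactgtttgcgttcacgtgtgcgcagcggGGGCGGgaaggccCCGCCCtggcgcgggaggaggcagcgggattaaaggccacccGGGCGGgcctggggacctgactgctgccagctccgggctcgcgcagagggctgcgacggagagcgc
Scnn1b: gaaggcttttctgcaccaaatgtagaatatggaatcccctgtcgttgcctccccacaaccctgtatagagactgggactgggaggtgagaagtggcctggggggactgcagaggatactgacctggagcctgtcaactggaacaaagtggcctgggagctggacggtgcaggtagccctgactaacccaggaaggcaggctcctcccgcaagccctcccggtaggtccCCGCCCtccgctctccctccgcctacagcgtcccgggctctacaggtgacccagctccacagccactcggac
Scnn1g: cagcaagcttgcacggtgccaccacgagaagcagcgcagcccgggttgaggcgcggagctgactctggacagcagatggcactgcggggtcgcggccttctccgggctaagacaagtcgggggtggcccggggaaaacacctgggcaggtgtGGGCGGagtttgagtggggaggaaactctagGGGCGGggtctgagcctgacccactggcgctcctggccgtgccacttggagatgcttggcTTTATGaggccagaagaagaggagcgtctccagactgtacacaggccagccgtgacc

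The GC box occurred 3 times in the Slc9a3 window, once in that of Scnn1b and 2 times in that of Scnn1g, and 35.7% of all 32841 promoters of this length held it. The CDX site, named for the intestinal transcription factors, occurred once, in the Scnn1g window just before the start site, and 11.9% of all promoters held it. The letters TGTTCT, part of the site of the steroid receptors, a family that includes the aldosterone receptor, were in none of the 3 windows (19.0% of all promoters), nor were those of the HOX13 core TCGTAAA (0.597%). Among the other 4 genes, the GC box was also in the Cftr window, 6 times with overlaps counted, and TGTTCT in reverse in that of Slc26a3, while the windows of Aqp8 and Car4 matched none of the 4 motifs. A match is a run of letters and was not shown to be bound.

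Of the 54 further transport genes tested in KO against WT crypts, 3 were called higher and 1 lower, shares near the 7.95% and 1.53% of all genes, and their median log2 fold change was -0.02. Atp12a, the colonic proton/potassium pump of the distal colon, was at 1265, 1542, 1595, 2111 and 1399 CP20M in KO crypts against 823 and 569 and rose (1.18, SE 0.18, adjusted p = 0.00616). Slc16a3, the lactate exporter MCT4, passed (1.01, SE 0.23, adjusted p = 0.0238) from 32 in both WT crypts to 59 to 89, and Slc16a1 fell (-0.59, SE 0.16, adjusted p = 0.0434) from 8807 and 11983 to 5816 to 8187, the ranges not overlapping. Car15, a membrane carbonic anhydrase, passed (0.64, SE 0.25, adjusted p = 0.136) at low levels of 44 to 75 against 30 and 39. Slc16a3 and Car15 reached the filter through the KO crypts only, so their calls are no support for a rise. None of the 9 genes of ENaC control was called, and Nr3c2 (0.41, SE 0.12, adjusted p = 0.0635) and Nedd4l, the ubiquitin ligase that removes ENaC (0.32, SE 0.12, adjusted p = 0.119), had the smallest p-values. Kcne3, a potassium channel subunit of the secreting crypt cell (-0.43, adjusted p = 0.0379), and Ano1 (0.46, adjusted p = 0.0477) were under 1.5-fold, as were Aqp4 (0.46, adjusted p = 0.167), Guca2a (-0.27, adjusted p = 0.111) and Slc4a2, the basolateral anion exchanger (0.26, adjusted p = 0.191). No sodium pump gene passed the adjusted p, the smallest being that of Atp1b3 (-0.22, adjusted p = 0.206).

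In the line with epithelial loss of Olfr78, none of the 10 genes passed in eKO against eCtrl crypts, and none of all 15401 genes tested did (0.00%; 127 had an unadjusted p under 0.05, edgeR called 0 and DESeq2 6). For each of the 10 genes the 2 eKO values overlapped with the 3 eCtrl values, where 7.58% of all genes lay higher and 2.79% lower without overlap. Slc9a3 was at 2839 and 7291 CP20M in eKO replicates 1 and 2 and at 2905, 4265 and 5475 in the eCtrl crypts (log2 fold change 0.16, SE 0.41, adjusted p = 1.0). Scnn1g was at 18 and 66 against 6, 59 and 79 (-0.00044, SE 0.80), and Scnn1b at 118 and 182 against 110, 98 and 140 (0.33, SE 0.28, adjusted p = 1.0). For Slc9a3 and Scnn1b the library labelled eKO replicate 2 lay above all 3 controls, and eKO replicate 1 did not. Car4 was the same, with 6061 and 11324 against 6149, 5876 and 9417 (0.25, SE 0.31). Slc26a3 was at 7137 and 20340 against 10070, 15434 and 19442 (-0.26, SE 0.45), and Aqp8 at 2359 and 4662 against 2890, 2610 and 4044 (0.09, SE 0.31). Scnn1a, at 1620 and 2523 against 1803, 1884 and 2189, gave 0.05 (SE 0.21). For Slc9a3, Slc26a3, Aqp8 and Scnn1a the 2 eKO crypts lay on either side of all 3 controls. Car1 was at 100036 and 81808 against 120418, 75676 and 91882 (-0.06, SE 0.31), Car2 at 17257 and 12555 against 15372, 15874 and 15542 (-0.08, SE 0.20) and Cftr at 5678 and 6094 against 4820, 6197 and 4524 (0.20, SE 0.18). Here eKO replicate 1 was the higher for both carbonic anhydrases. For Car2 too, the 2 eKO crypts lay on either side of all 3 controls. Without the library labelled eKO replicate 2, the log2 fold changes were -0.52 for Slc9a3, -0.72 for Scnn1g, 0.04 for Scnn1b and -1.02 for Slc26a3, and 0 of the 10 genes were called, beside 0.0390% of all genes. The posterior Hox genes summed to 1537 CP20M in eCtrl replicate 1, to 3999 and 4134 in the other eCtrl crypts and to 2591 and 2732 in the eKO crypts, and eCtrl replicate 1 also had the lowest Slc9a3 and Scnn1g of the controls. Scnn1b was lowest in eCtrl replicate 2, and the highest Slc9a3 of the line was in eKO replicate 2, with a Hox sum below 2 of the controls. Their part was not tested. Among 54 further transport genes none was called. The smallest p-values were those of Clca1, a secreted goblet cell protein (-1.12, unadjusted p = 0.0295), and Kcnn4, a potassium channel (0.54, unadjusted p = 0.0474).

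With the crypts of both lines in 1 fit and the line as a covariate, none of the 10 genes was called, beside 0.0243% of all 16447 genes (0.00608% higher and 0.0182% lower). Scnn1b came closest (log2 fold change 0.61, SE 0.17, unadjusted p = 0.00239, adjusted p = 0.501), then Car2 (-0.32, SE 0.12, adjusted p = 0.618) and Slc9a3 (0.84, SE 0.34, adjusted p = 0.621). Without the library labelled eKO replicate 2, again none was called (0.195% of all genes). Without eKO replicate 1, the library with the knockout's tag and the lower Olfr78, Slc9a3 (1.22, adjusted p = 0.0486), Scnn1b (0.76, adjusted p = 0.0283) and Scnn1g (1.45, adjusted p = 0.1001) were called, along with 6.88% of all genes. The calls over both lines therefore turned on 1 library. Whether the effect of genotype differed by line was tested as well. It was not called for any of the 10 genes (0.0304% of all genes), with -1.26 (SE 0.62, adjusted p = 0.563) for Slc9a3, -1.83 (SE 0.94, adjusted p = 0.563) for Scnn1g and -0.51 (SE 0.31, adjusted p = 0.607) for Scnn1b. A negative value means that the log2 fold change was lower in the eKO line than in the Olfr78-GFP line. Line and genetic background cannot be told apart here. Without the library labelled eKO replicate 2, 6 of the 10 genes passed the adjusted p of at most 0.2, namely Slc9a3 (-1.94), Scnn1g (-2.55), Scnn1b (-0.80), Scnn1a (-0.66), Slc26a3 (-1.25) and Car2 (0.67), where 26.2% of all genes passed. The eKO group then held 1 library, which was assumed to vary like the other groups. Without eCtrl replicate 1, Scnn1g passed (-2.59, adjusted p = 0.163), as did 3.75% of all genes.

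**Figure D3:**
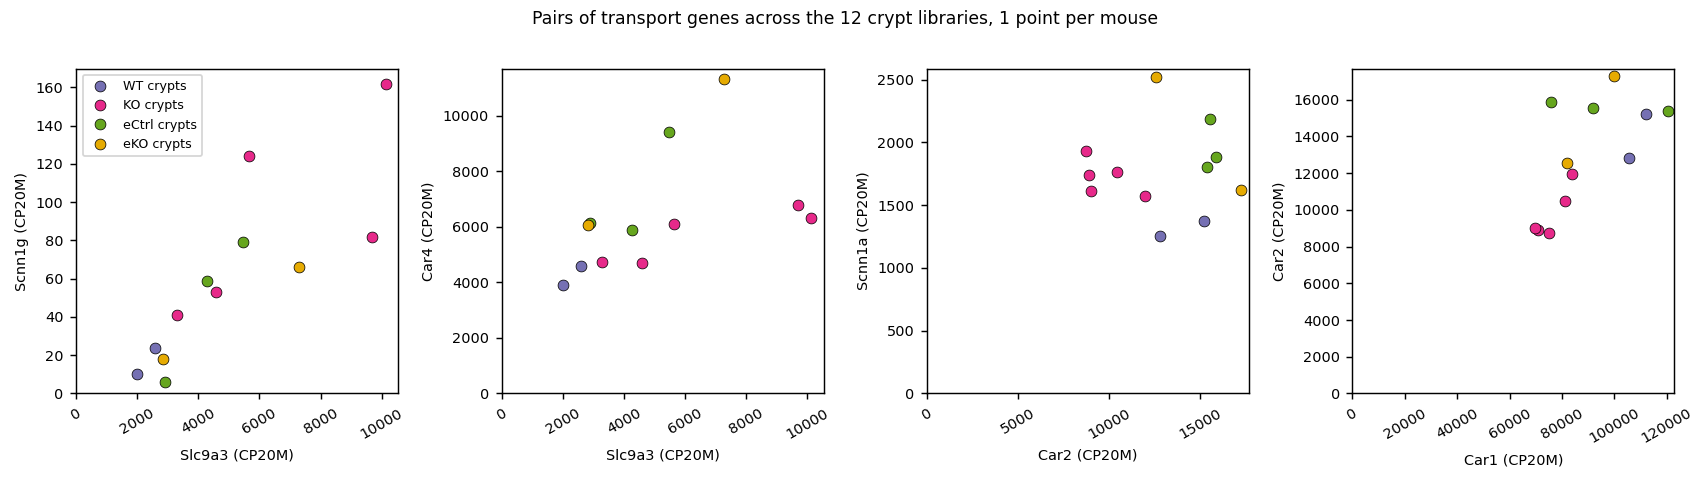
Each panel plots 2 genes against each other in CP20M on linear axes from 0, 1 point per crypt library, coloured by group. Scnn1g and Car4 tended to be high where Slc9a3 was high, and the 5 KO crypts had less Car2 than any other crypts.

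Across the 12 crypt libraries, pairs of the 10 genes differed in how closely they varied together between mice. The libraries were centred within each line on log2(CP20M + 10), and the correlations are descriptions over libraries that share preparation and, in part, genotype. Slc9a3 went with Scnn1g (Pearson r = 0.883), Car4 (0.857) and Slc26a3 (0.707), and Aqp8 went with Slc26a3 (0.805) and Car4 (0.746). Centring within each of the 4 groups left these at 0.8, 0.854, 0.849, 0.836 and 0.79, so the pairs also varied together within the labelled groups. The eCtrl group mixes genotypes, and the eKO group keeps the library labelled eKO replicate 2. These correlations were not computed without that library. Not all absorptive genes varied so closely, with 0.553 for Aqp8 and Slc9a3, 0.409 for Aqp8 and Scnn1g, 0.372 for Slc26a3 and Scnn1b and 0.369 for Aqp8 and Scnn1b. The alpha and beta subunits of ENaC went together at 0.785, and at 0.619 within groups. Car1 went with Car2 at 0.764 and against Scnn1g (-0.765), and Car2 went against Scnn1a (-0.792) and Scnn1b (-0.753). Within groups the last 2 values were -0.609 and -0.362, and Car1 with Car2 was 0.466. Cftr went with none of the other 9, its r lying between -0.274 and 0.277, and between -0.418 and 0.268 within groups. Of the 45 pairs, 15 (33.3%) lay above 0.6 and 5 (11.1%) below -0.6, where 8.69% and 6.62% of all pairs of the 13113 genes with at least 40 CP20M in every crypt library did. Within groups the shares were 26.7% and 2.22% of the 45 pairs, and 10.7% and 8.27% of all pairs. Scnn1g was under 40 CP20M in some crypt libraries (24 and 10 in WT crypts), so its pairs lie outside the set that gave the shares of all pairs. Pairs share genes and are not independent.

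**Figure D4:**
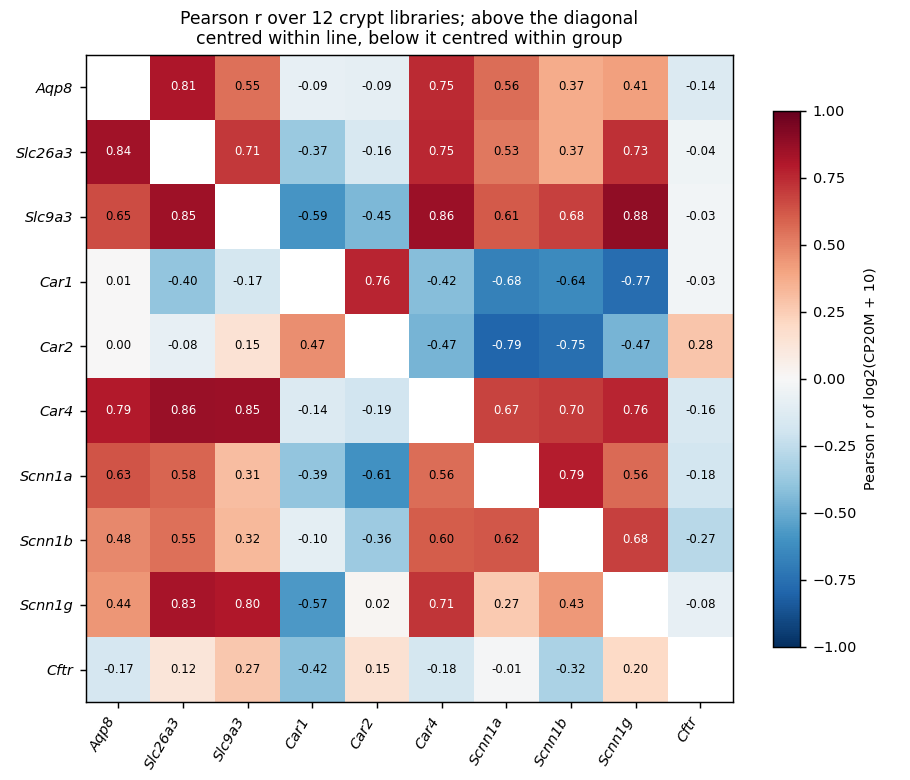
Each cell gives the Pearson r of 2 genes over the 12 crypt libraries on log2(CP20M + 10), centred within the line above the diagonal and within the group below it. Slc9a3, Slc26a3, Car4 and Aqp8 are positive with one another on both sides, Car1 and Car2 are negative with the ENaC subunits above the diagonal, and Cftr lies between -0.274 and 0.277 above the diagonal and between -0.418 and 0.268 below it.

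Over 13113 genes with at least 40 CP20M in all 12 crypt libraries, the 3 genes most like each of the 10 were listed by the same r. For Slc9a3 they included Zcchc4 (0.942) and Gm37212 (0.94), and for Scnn1g they were Polg (0.978), Rep15 (0.97) and Gm43213 (0.967). For Slc26a3 they were Itgb6 (0.978), Zswim6 (0.969) and Gm15283 (0.954), for Aqp8 Naip1 (0.921), Batf2 (0.92) and Cyp4f16 (0.914), and for Car4 Lamb3 (0.956), Leng9 (0.948) and Ssfa2 (0.946). For Car1 they were Fam162a (0.981), Ldha (0.956) and Arhgdia (0.955), where Ldha encodes a lactate dehydrogenase subunit, at 10902 and 11420 CP20M in WT and 8180 to 9597 in KO crypts. Car2 was followed by Prelid2 (0.958), Ola1 (0.943) and Plp2 (0.939). Scnn1a was followed by Rhbdl1 (0.943), Kif24 (0.942) and Myo3a (0.939), and Scnn1b by Ndor1 (0.959), Zdhhc18 (0.939) and Pcyt2 (0.938). For Cftr the values were lower, 0.885 for Zfp442, 0.865 for Fiz1 and 0.859 for Bag5. An exon of Cftr overlaps the antisense gene Gm15592, which reached 885 CP20M, and since the strand used in counting is not given in the sources used here, reads of the 2 genes may not be told apart.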

How the data were processed

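The samples were grouped by their titles. Paired-end reads had been aligned by the authors with STAR (genome GRCm38) and assigned to Ensembl release 90 genes with HTSeq. The deposited signal of a sorted library and the deposited score of a crypt library are these reads, brought by the authors to a sum of 20000000 and then rounded up to whole values (CP20M). Whole reads were recovered for 99.84% to 99.99% of the values of a library, on which edgeR 4.0.16 and DESeq2 1.42.0 were run as alternatives. The main test was limma 3.58.1 (R 4.3.3) with a trend, on log2(CP20M + 10), of genes with at least 40 CP20M in at least 2 libraries compared (above 40 in all 4 pools for KO against HE), adjusted by Benjamini-Hochberg over all genes tested. Fold changes on this scale understate the change of low genes. The design had assumed scaled values and was kept.

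The 10 genes, the lists of 65 transport genes in 9 groups and of 9 sets of markers, and the thresholds were chosen with earlier results of these data known, and support nothing on their own. Named were all 10 genes, the listed genes past the thresholds (at most 4 a group) or the 2 of a group with the smallest p, the 3 genes most like each of the 10, markers and Olfr78. For several comparisons only some of these are printed, and 1 item is not reported here. Exon lengths came from GENCODE vM21 on GRCm38. Counting intervals and limits of 3 reads cover counting error only. Fits were tested on simulated data. Alternatives were other pseudocounts, rescaling, filters, no trend, the replicate number as a block, all libraries in 1 fit, no line covariate and leaving out each library.

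Deviations from the group means were correlated over genes between libraries of equal number. This gave 0.03 between Epcam+ve/GFP-ve samples and HE pools, -0.24 for KO and HE pools, 0.06 and -0.10 for KO and WT crypts and 0.59 and 0.36 for eKO and eCtrl crypts. The numbers mark no shared animal, and each comparison shares only 2 numbers within a line, so the fits carry no block.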

Additional observations from a re-analysis of the deposited data

How the results depend on the processing

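For KO against WT crypts, 1514 genes were called in all and 3 of the 10 (Scnn1g included). These counts became 854 and 3 with a pseudocount of 40, and 636 and 3 with all 12 crypt libraries in 1 fit. They became 1432 and 5 with rescaling, and 1555 and 5 with the replicate block. Leaving out 1 library gave 553 to 1699 genes and 0 to 4 of the 10. For HE pools against Epcam+ve/GFP-ve samples, 287 genes became 77 and 522 with pseudocounts of 1 and 40, 0 without the trend, 523 with the replicate block, 759 by edgeR, 691 by DESeq2 and 117 with all 6 sorted libraries in 1 fit, and 0 with any library left out. Of the 10 genes, 1 was called with a pseudocount of 40, 1 with no filter, 1 by DESeq2, 2 by edgeR and 3 with the replicate block (Slc26a3, Car2 and Cftr). For KO against HE pools, 0 genes became 2 with no filter, 8 by DESeq2, 1572 by the study's criterion and 0 to 303 with a pool left out (0 to 2 of the 10). The numbers of the pools deviated in opposite ways, and with the pairs crossed, an alternative chosen after seeing the data, 85 genes were called. For Epcam+ve/GFP-ve samples against WT crypts, 116 genes became 0 with no filter, 0 without the trend, 420 with the replicate block, 328 by edgeR, 322 by DESeq2 and 0 to 39 with a library left out. Aqp8 alone was called, and 0 of the 10 were with a pseudocount of 1, rescaling, no filter, no trend or any library left out (0 to 0). For eKO against eCtrl crypts, 0 genes became 13 with the replicate block, 6 by DESeq2 and 1 to 6 with a library left out. Over both lines, 4 genes became 0 without the trend, 27 with the replicate block, 9 by edgeR, 38 by DESeq2 and 0 to 1131 with a library left out (0 to 3 of the 10). For the difference between lines, 5 genes became 3 with a pseudocount of 1 and with no filter, 50 with the replicate block, 66 by DESeq2 and 2 to 4311 with a library left out (0 to 6 of the 10). The median r of the 45 pairs was 0.277 within lines and 0.265 within groups. The cause of these changes was not tested, other than that leaving out a library leaves fewer samples.

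Values near 0 changed sign, none of them past its threshold. By DESeq2 these were Car4 in KO pools (0.0065), Car2 in Epcam+ve/GFP-ve samples (0.016), Cftr over both lines (-0.023) and Aqp8 between lines (0.048). By edgeR they were Scnn1b in HE pools (-0.015), Slc26a3 (0.0082) and Car4 (0.059) in KO pools, Car2 in Epcam+ve/GFP-ve samples (0.0084), Cftr over both lines (-0.015) and Aqp8 between lines (0.044). Rescaling gave -0.043 for Slc26a3 and -0.029 for Cftr over both lines and 0.012 for Aqp8 between lines, no line covariate gave -0.018 for Aqp8 and -0.053 for Slc26a3, and a pseudocount of 1 gave 0.14 for Scnn1g in eKO crypts. The replicate block gave -0.067 for Aqp8 in KO crypts, 0.47 for Scnn1g in eKO crypts, -0.037 for Cftr over both lines, and 0.34 for Aqp8 and 0.12 for Car4 between lines. With 1 library left out the log2 fold change spanned 0 for Scnn1b in HE pools (-0.44 to 0.56), Aqp8 in KO crypts (-0.24 to 0.45) and 6 genes in KO pools, Slc26a3 (-3.22 to 0.93), Slc9a3 (-0.64 to 1.72), Car1 (-2.30 to 0.73), Car2 (-0.12 to 1.61), Car4 (-1.37 to 0.41) and Cftr (-0.31 to 1.39). In eKO crypts it did so for Aqp8 (-0.40 to 0.58), Slc26a3 (-1.02 to 0.49), Slc9a3 (-0.52 to 0.84), Car1 (-0.22 to 0.12), Car2 (-0.31 to 0.15), Car4 (-0.20 to 0.70), Scnn1a (-0.27 to 0.37) and Scnn1g (-0.76 to 0.72). Over both lines it did so for Aqp8 (-0.069 to 0.27), Slc26a3 (-0.20 to 0.32) and Cftr (-0.036 to 0.066), and between lines for Aqp8 (-0.51 to 0.47), Slc26a3 (-1.25 to 0.26) and Car4 (-0.62 to 0.28). In KO pools, Slc26a3, Car1 and Car2 passed the threshold in 1 of these fits each. Of the 587 values of the 10 genes under other settings, 550 kept their direction and their side of the threshold, and of 460 with a library left out, 394 did. Depth limited Scnn1b and Scnn1g in the sorted cells, which held 0 to 8 reads of the former and 0 to 1 of the latter.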
